A study of Mus musculus with 6 samples.

Results

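The 7 genes described here encode receptors that steer leukocytes along gradients of chemoattractants: *Cx3cr1*, *Ccr1*, *Ccr2*, *Ccr3*, *Ccrl2*, *Cxcr4* and *Cmklr1*. They were taken by symbol from a table of 24061 gene symbols, each matched 1 row, and all 7 passed the filter on low counts. RNA-seq had been run on CD45+CD11b+F4/80+ macrophages sorted by surface Lyve-1 from the inguinal mammary glands of virgin female FVB/N mice. There were 3 Lyve-1- and 3 Lyve-1+ libraries, and 4 mice had been pooled for each. The mice were 6 weeks old for replicate 1 of either subset and 10 weeks old for the other replicates. The groups carried no transgene or treatment. The p-values measure the spread between these pools. Whether pools of 1 age were sorted on separate days is not given in the sources used here. Nor is it given whether same-numbered libraries of the subsets came from the same mice.

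Chemokine receptors are G protein-coupled receptors with 7 membrane-spanning segments that signal mainly through Gi proteins. CCR2 draws Ly6C-high monocytes out of the bone marrow and into tissues, and CX3CR1 marks Ly6C-low monocytes and many tissue macrophages. CXCR4 retains cells where CXCL12 is made. CCRL2 binds chemerin and presents it without signalling in the usual way, and CMKLR1 is the signalling receptor for chemerin.

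The sort was first checked on the gene of the sorted protein. *Lyve1*, the hyaluronan receptor on which the cells were separated, had 17, 75 and 51 counts in Lyve-1- replicates 1, 2 and 3 and 30871, 16441 and 4735 counts in Lyve-1+ replicates 1, 2 and 3. The subsets were far apart for it in the direction of their labels, with a log2 fold change of 7.93 (SE 0.94, edgeR adjusted p = 0.0254), which was not under the adjusted p of 0.01 that calls were made at. The macrophage label held for the defining genes: *Csf1r*, the receptor for the macrophage growth factor CSF1, had CPM values (counts over TMM-normalised library totals) of 703 to 842 in Lyve-1- libraries and 1100 to 1740 in Lyve-1+ libraries. *Adgre1*, which encodes F4/80 and is listed under the older symbol *Emr1*, lay between 200 and 388 CPM in all libraries. Total counts ran from 6478007 to 21406839 per library. Olfactory receptor genes, which macrophages are not known to use, took between 0.00101% and 0.145% of the counts, most in Lyve-1- replicate 3 and next most in Lyve-1+ replicate 1. At the mean counts per kb over those genes, stray reads would be 2.91% or less of any receptor's counts, where it was counted. The olfactory receptor counts were uneven: in Lyve-1+ replicate 2, 4160 counts lay on 134 of 1114 genes. A single gene could thus hold more stray reads than this mean gives.

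Of the 7 genes, 5 lie on mouse chromosome 9, and *Ccr1*, *Ccr3* and *Ccr2* lie in a cluster there (mm10, GENCODE M21). *Ccr1l1*, which is not among the 7, lies between *Ccr1* and *Ccr3*. *Ccr1* runs from 123962124 to 123968692 on the minus strand, *Ccr3* from 124021972 to 124031689 on the plus strand and *Ccr2* from 124101950 to 124113557 on the plus strand. *Ccrl2* lies at 111054486 to 111057519 and *Cx3cr1* at 119901616 to 120069879, both on the minus strand of chromosome 9. *Cxcr4* is on chromosome 1 at 128588199 to 128592293 and *Cmklr1* on chromosome 5 at 113612354 to 113650426, both on the minus strand.

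The receptors of this cluster are related in sequence, which bears on how well the reads could be told apart. The coding sequences of *Ccr1* and *Ccr3* were 70.6% identical over their aligned bases. The remaining pairs among the 7 lay between 52.9% and 64.3%. *Ccr1l1*, outside the 7, was closer to *Ccr1*, at 76.3%, with a longest shared run of 31 bases. The longest stretch that *Ccr1* and *Ccr3* share without a mismatch was 47 bases, shorter than a 50-base read, and it is shown because it is the longest run common to any pair of the 7. It lies in a coding exon at 123963611 to 123963657 of *Ccr1* and 124029476 to 124029522 of *Ccr3*, on chromosome 9 of mm10.
Ccr1 and Ccr3: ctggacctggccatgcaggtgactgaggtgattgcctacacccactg

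Over the whole exonic sequence of *Ccr2*, 129 of 6758 windows of 50 bases (1.91%) were also found in transcripts of other genes. *Ccr1*, *Ccr3*, *Ccrl2* and *Cxcr4* shared no such window with another gene. *Cx3cr1* shared 1.06% of its windows with other genes, and 78 of its 4505 exonic bases (1.73%) overlap an antisense gene, *Gm33858*. *Cmklr1* shared 0.329%. The strand setting of the counting was not given in the sources used here, so reads of *Cx3cr1* and *Gm33858* in that overlap cannot be told apart.

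No receptor gene was called between the subsets. A call was made where the adjusted p was under 0.01 and the log2 fold change between 1 and 10 in size, and edgeR's quasi-likelihood test made it for 0 of the 7 genes, against 0.112% of the 13348 genes tested. At an adjusted p under 0.05 the count was also 0 of 7, where 0.629% of all genes passed. At an unadjusted p under 0.05 there were 3 of 7, *Ccr2* and *Ccr3* on the lower side in Lyve-1+ libraries and *Cmklr1* on the higher side, where 7.69% of all genes passed (3.5% lower and 4.2% higher). DESeq2 called 0 of 7 by the same limits, where it called 0.886% of genes, and gave 1 of 7, *Cmklr1*, an adjusted p under 0.05, where 1.99% of genes had one. The values of the 3 Lyve-1- and the 3 Lyve-1+ libraries did not overlap for 3 of 7 receptors, against 14.3% of all genes. For 2 of these Lyve-1+ was the lower subset, as for 6.5% of all genes, and for 1 the higher, as for 7.82%. Fitted values were lower in Lyve-1+ for 5 receptors and higher for 2. The median of the 7 log2 fold changes was -0.47, beside -0.01 over all genes tested.

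**Figure D1:**
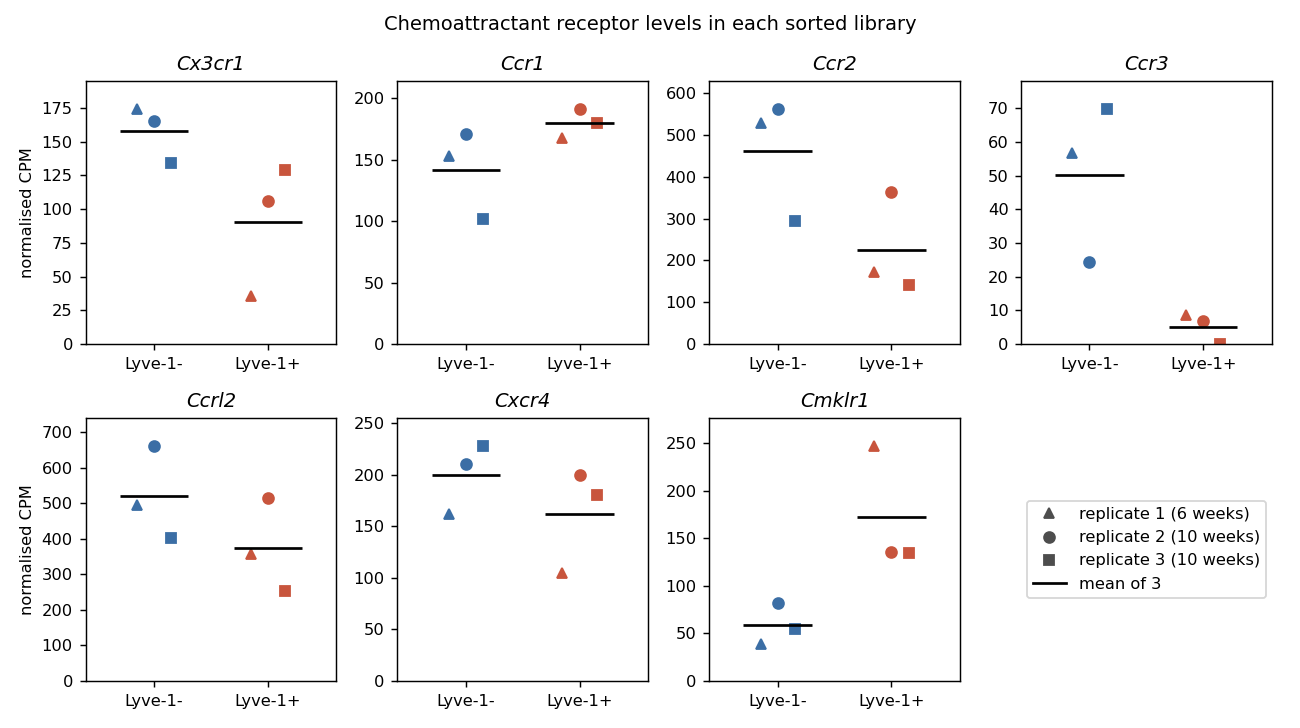
Normalised CPM (vertical axis, linear, from 0) of each of the 7 receptors in the 3 Lyve-1- (blue) and 3 Lyve-1+ (red) libraries, with the mean of each subset as a bar and the marker giving the replicate and age. The Lyve-1+ points lie below all Lyve-1- points for Ccr3 and Cx3cr1 and above them for Cmklr1, and the subsets overlap for the other receptors.

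*Cmklr1*, the chemerin receptor, had the largest positive difference. Its level was 39.2, 82.4 and 54.5 CPM in Lyve-1- replicates 1, 2 and 3 and 247, 136 and 134 CPM in Lyve-1+ replicates 1, 2 and 3. The subsets did not overlap, and the 6-week Lyve-1+ library was the highest of the 6. The means were 58.7 ± 21.9 CPM (SD, n = 3) and 172 ± 64.3 CPM (SD, n = 3), a fitted difference of 2.93-fold. The log2 fold change was 1.55 (SE 0.37, 95% interval 0.77 to 2.34), with an adjusted p of 0.0873 in edgeR and 0.0144 in DESeq2. With each library left out in turn it ran from 1.19 without Lyve-1+ replicate 1 (adjusted p = 0.467) to 1.98 without Lyve-1- replicate 2 (adjusted p = 0.0146), and in the 10-week libraries alone it was 0.97 (adjusted p = 0.902). Its ligand chemerin, encoded by *Rarres2*, had 5.18, 6.27 and 4.64 CPM in Lyve-1- libraries and 5.83, 12.5 and 25.8 CPM in Lyve-1+ libraries, so the subsets overlapped for it (log2 fold change 1.45, SE 1.04, edgeR adjusted p = 0.969). The 300 bases around a RefSeq start site of *Cmklr1* are shown, which lie 6573 bases inside the 5′ end of the gene as GENCODE gives it, with the 1 match to GAGGAA, the core motif of the myeloid factor PU.1, in capitals.
Cmklr1 promoter, chr5:113643554-113643853 (-): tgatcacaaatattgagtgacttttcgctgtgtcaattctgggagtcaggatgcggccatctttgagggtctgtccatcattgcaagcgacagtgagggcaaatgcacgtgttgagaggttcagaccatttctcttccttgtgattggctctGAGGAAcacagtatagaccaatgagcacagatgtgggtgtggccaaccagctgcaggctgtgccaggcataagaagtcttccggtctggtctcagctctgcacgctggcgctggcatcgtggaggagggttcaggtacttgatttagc

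*Ccr3*, the eotaxin receptor that eosinophils carry at high levels, had the largest negative difference. There were 678, 275 and 481 counts in Lyve-1- replicates 1, 2 and 3 and 114, 145 and 0 counts in Lyve-1+ replicates 1, 2 and 3. As CPM these were 56.6, 24.3 and 69.7 in Lyve-1- libraries and 8.64, 6.91 and 0 in Lyve-1+ libraries. The 0 in Lyve-1+ replicate 3 allows up to 0.376 CPM, a limit from 3 counts that covers counting error only. All 3 Lyve-1+ libraries were below all 3 Lyve-1- libraries, with means of 50.2 ± 23.4 CPM (SD, n = 3) in Lyve-1- and 5.18 ± 4.57 CPM (SD, n = 3) in Lyve-1+. The log2 fold change was -3.26 (SE 1.11, 95% interval -5.72 to -0.80), with an adjusted p of 0.39 in edgeR and 0.0523 in DESeq2. Without Lyve-1+ replicate 3, the library with 0 counts, it was -2.69 with a smaller SE of 0.63 and an adjusted p of 0.0425, whereas without any of the others it was -3.79 to -2.95 with an adjusted p of 0.605 to 0.978. The result also turned on the filter: with no filter on low counts the adjusted p was 0.000297, past the call. The 300 bases around its start site held 1 match to GAGGAA and 1 to AGATAA, the letters that factors of the GATA family prefer, both in capitals.
Ccr3 promoter, chr9:124021721-124022020 (+): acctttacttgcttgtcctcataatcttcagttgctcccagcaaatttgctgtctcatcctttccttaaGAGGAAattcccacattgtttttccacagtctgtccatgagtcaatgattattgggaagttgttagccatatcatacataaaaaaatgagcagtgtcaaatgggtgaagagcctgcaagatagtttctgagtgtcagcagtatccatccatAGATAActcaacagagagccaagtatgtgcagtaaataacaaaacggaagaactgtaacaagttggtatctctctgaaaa

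Markers of eosinophils, the cells best known for *Ccr3*, were low in all libraries. The 7 eosinophil markers in the table, *Epx*, *Prg2*, *Prg3*, *Ear1*, *Ear2*, *Ear6* and *Il5ra*, summed to between 4.51 and 39.6 CPM in Lyve-1- and between 2.52 and 34.7 CPM in Lyve-1+, so their sums overlapped. *Epx*, *Prg2* and *Prg3*, which encode the proteins of eosinophil granules, had 0 counts in Lyve-1- replicates 1 and 2, where *Ccr3* had 678 and 275 counts. In Lyve-1- replicate 3, the library with most olfactory receptor counts, they had 43, 44 and 41 counts. *Ear6* was at 0 in every library, and *Siglecf* was not matched in the table. Of the 3 eosinophil markers tested, 0 passed an adjusted p of 0.05. *Il5ra* had the highest fitted value (log2 fold change 1.14, SE 2.23, adjusted p = 1) and *Ear2* the lowest (-3.67, SE 2.60, adjusted p = 0.967). *Ear2* was the 1 marker of the 3 whose subsets did not overlap, where 14.3% of all genes did not. It had 1.59, 1.85 and 4.93 CPM in Lyve-1- and 0.227, 0.381 and 0 CPM in Lyve-1+ replicates 1, 2 and 3. These rest on few counts, 19, 21 and 34 in Lyve-1- and 3, 8 and 0 in Lyve-1+. The 0 was in the library where *Ccr3* was at 0. The part of eosinophils in the values of *Ccr3* was not tested.

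Markers of dendritic cells, some of which also carry *Ccr2*, had 8 lower and 2 higher fitted values in Lyve-1+ libraries. The 10 markers summed to between 838 and 1280 CPM in Lyve-1- and between 474 and 795 CPM in Lyve-1+, and 0 of 10 passed an adjusted p of 0.05. That gap in the sums rested on *Fscn1*, the 1 marker of 10 whose subsets did not overlap, where 14.3% of all genes did not. Without *Fscn1* the sums were 722 to 769 CPM and 457 to 734 CPM, which overlap. *Fscn1*, an actin-bundling gene of mature dendritic cells, had 69, 396 and 537 CPM in Lyve-1- replicates 1, 2 and 3 and 17.1, 58.2 and 61.4 CPM in Lyve-1+ replicates 1, 2 and 3 (log2 fold change -2.87, SE 0.82, adjusted p = 0.337 in edgeR and 0.000356 in DESeq2). In edgeR it was also called without Lyve-1- replicate 1 (adjusted p = 0.00317) and in the 10-week libraries alone (adjusted p = 0.00143), and without any of the other libraries its adjusted p was 0.453 to 0.909. *Ccr7*, the receptor that guides mature dendritic cells to lymph nodes, had 138, 455 and 502 CPM against 14.7, 59.3 and 106 CPM (log2 fold change -2.61, SE 0.78, adjusted p = 0.36 in edgeR, 0.00135 in DESeq2 and 0.00751 in edgeR on the 10-week libraries alone). With each library left out in turn its adjusted p in edgeR was 0.203 to 0.994. With a term for age both *Fscn1* and *Ccr7* were called (edgeR adjusted p = 0.000237 and 0.000172). They were also called with the replicate number as a block (edgeR adjusted p = 3.92e-07 and 6.01e-08). In neither *Fscn1* nor *Ccr7* did the subsets overlap. No defining dendritic marker was at 0 in every library, and *Clec9a* was the 1 of 10 at 0 in any. *Siglech*, of plasmacytoid cells, had the highest fitted value in the list (log2 fold change 0.90, adjusted p = 1). The part of these cells in the receptor values was not tested, and in bulk libraries fewer cells of a type and less RNA per cell cannot be told apart.

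**Figure D2:**
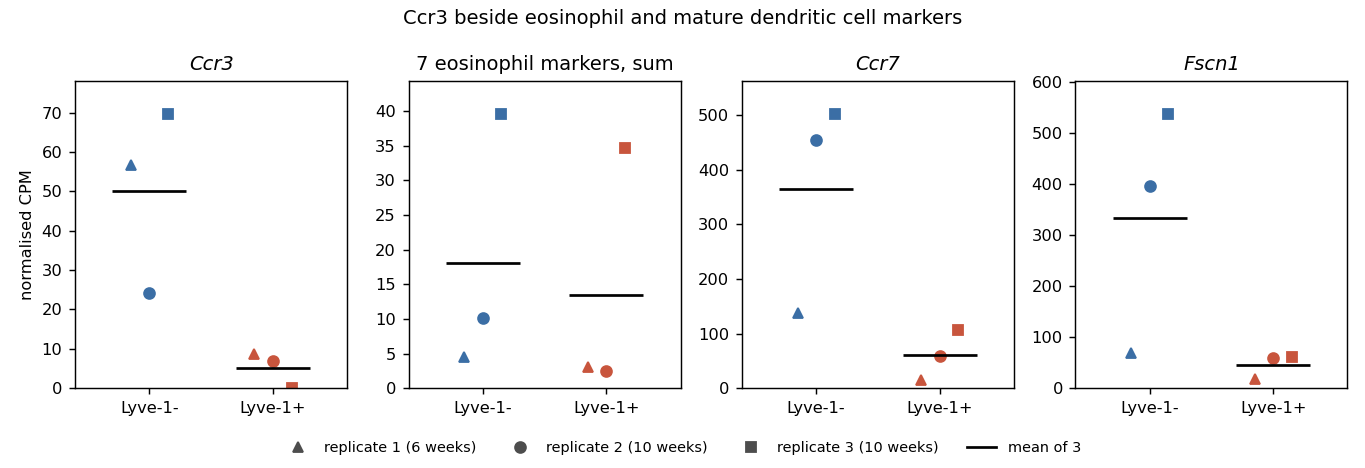
Normalised CPM (vertical axis, linear, from 0, its own scale in each panel) of Ccr3, of the sum of 7 eosinophil markers, and of Ccr7 and Fscn1, in Lyve-1- (blue) and Lyve-1+ (red) libraries, with bars at the means of 3. The eosinophil sum overlaps between the subsets, whereas all Lyve-1+ points lie below the Lyve-1- points for the 3 single genes.

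*Ccr2*, the receptor for the monocyte chemoattractant CCL2, was the most counted of the receptors together with *Ccrl2*. Its counts were 6338, 6348 and 2020 in Lyve-1- replicates 1, 2 and 3 and 2270, 7612 and 1133 in Lyve-1+ replicates 1, 2 and 3. Scaled to CPM, these were 529, 561 and 293 in Lyve-1- libraries and 172, 363 and 142 in Lyve-1+ libraries. Lyve-1+ replicate 2 was above Lyve-1- replicate 3, so the subsets overlapped by that library. The means of 461 ± 146 CPM (SD, n = 3) and 225 ± 120 CPM (SD, n = 3) gave a fitted difference of 2.04-fold. The log2 fold change was -1.03 (SE 0.37, 95% interval -1.82 to -0.25, edgeR adjusted p = 0.387). With each library left out in turn it ran from -1.55 without Lyve-1+ replicate 2 (adjusted p = 0.0198) to -0.78 without Lyve-1- replicate 2 or Lyve-1+ replicate 3 (adjusted p = 0.783 and 0.663). The start site of *Ccr2* held 1 match to AGATAA, read on the opposite strand as TTATCT and shown in capitals.
Ccr2 promoter, chr9:124101933-124102232 (+): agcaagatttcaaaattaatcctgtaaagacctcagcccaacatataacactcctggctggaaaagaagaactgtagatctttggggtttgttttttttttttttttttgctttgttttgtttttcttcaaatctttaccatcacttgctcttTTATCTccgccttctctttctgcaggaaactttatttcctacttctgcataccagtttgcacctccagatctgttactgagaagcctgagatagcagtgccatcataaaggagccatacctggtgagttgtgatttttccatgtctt

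*Cx3cr1*, the fractalkine receptor, separated the subsets by a narrow margin. Its level was 174, 165 and 134 CPM in Lyve-1- replicates 1, 2 and 3 and 35.4, 106 and 129 CPM in Lyve-1+ replicates 1, 2 and 3. The highest Lyve-1+ library and the lowest Lyve-1- library were both 10-week replicates and lay at 129 and 134 CPM. The 6-week Lyve-1+ library was far below the rest. With means of 158 ± 21.2 CPM (SD, n = 3) and 90.2 ± 48.9 CPM (SD, n = 3), the log2 fold change was -0.81 (SE 0.40, 95% interval -1.66 to 0.05, edgeR adjusted p = 0.699). In the 10-week libraries alone it was -0.36 (SE 0.38, adjusted p = 1). Its membrane-bound ligand, encoded by *Cx3cl1*, was between 0 and 7.54 CPM (log2 fold change -1.37, adjusted p = 1). The RefSeq promoter lies 1333 bases inside the 5′ end of the GENCODE gene. It held no match to any motif searched and is shown for comparison with that of *Ccr2*.
Cx3cr1 promoter, chr9:120068247-120068546 (-): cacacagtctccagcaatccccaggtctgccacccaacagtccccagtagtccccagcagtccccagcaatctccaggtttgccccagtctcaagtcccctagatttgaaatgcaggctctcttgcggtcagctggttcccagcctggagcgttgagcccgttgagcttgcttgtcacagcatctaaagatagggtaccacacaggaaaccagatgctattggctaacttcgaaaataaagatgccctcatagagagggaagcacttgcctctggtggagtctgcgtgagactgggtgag

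The motifs were searched on both strands of the RefSeq promoters (GRCm38.p6, 300 bases around the start) of all 7 genes, *Ccrl2* having 3. They were GAGGAA (PU.1 core, in 28.3% of all 32851 promoters), AGATAA (preferred by GATA factors, 11.2%), TTGCNNAA (C/EBP, 10.8%) and GGGCGG (SP1/KLF, 35.7%). Besides the matches given above, *Ccr1* held 1 GAGGAA and *Cxcr4* held 3 GGGCGG. The first *Ccrl2* promoter held 1 GGGCGG and the others 1 AGATAA each, in bases that both cover. A match is a run of letters and was not tested as a bound site.

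*Ccrl2*, the non-signalling chemerin receptor, had 496, 662 and 403 CPM in Lyve-1- replicates 1, 2 and 3 and 357, 516 and 253 CPM in Lyve-1+ replicates 1, 2 and 3. The subsets overlapped, with replicate 2 the highest of each. Its log2 fold change was -0.47 (SE 0.30, 95% interval -1.11 to 0.17, edgeR adjusted p = 0.907). The chemerin receptors *Cmklr1* and *Ccrl2* thus had fitted values of opposite sign, and the difference between them was not tested.

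*Cxcr4*, the CXCL12 receptor, had 162, 210 and 228 CPM in Lyve-1- libraries and 105, 200 and 180 CPM in Lyve-1+ libraries. The 6-week library was the lowest of each subset, and the subsets overlapped. Its log2 fold change was -0.31 (SE 0.30, 95% interval -0.96 to 0.34, edgeR adjusted p = 1), and it was 0.01 over the 4 libraries with the smallest share of olfactory receptor counts. Those 4 leave out Lyve-1+ replicate 1, the 6-week library of that subset, but keep the 6-week library of Lyve-1-. *Cxcl12* overlapped as well, at 43.3, 18.1 and 19.4 CPM in Lyve-1- and 24.4, 47.8 and 36.3 CPM in Lyve-1+ libraries.

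*Ccr1*, which binds several inflammatory CC chemokines, was the steadiest in Lyve-1+ libraries. It had 153, 171 and 102 CPM in Lyve-1- replicates 1, 2 and 3 and 168, 191 and 180 CPM in Lyve-1+ replicates 1, 2 and 3. Lyve-1- replicate 2 lay above Lyve-1+ replicate 1, so the subsets overlapped. The coefficient of variation was 6.45% in Lyve-1+ and 25.2% in Lyve-1-, and the log2 fold change was 0.34 (SE 0.29, 95% interval -0.27 to 0.96, edgeR adjusted p = 1).

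**Figure D3:**
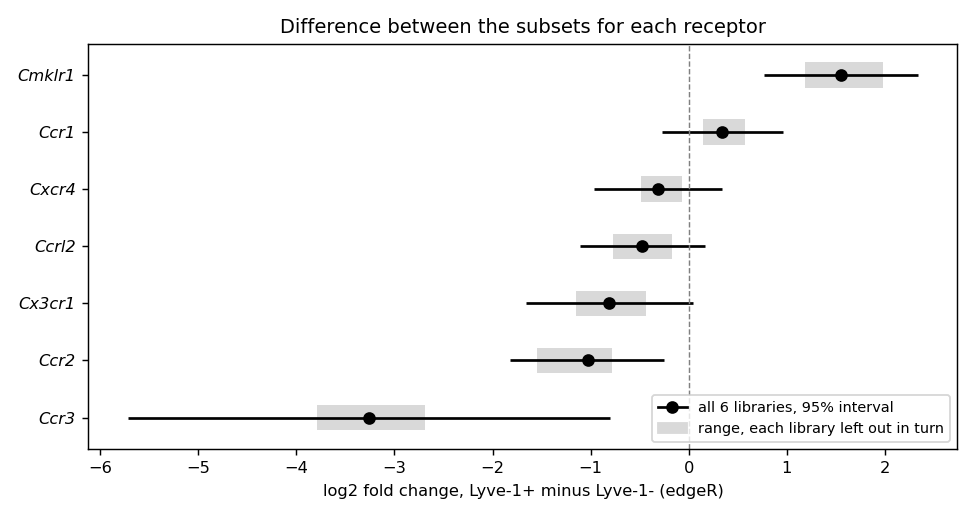
Log2 fold change of each receptor, Lyve-1+ minus Lyve-1- (horizontal axis), from edgeR with its 95% interval over all 6 libraries (point and line) and the range of the estimate when each library is left out in turn (grey bar). The intervals of Cmklr1, Ccr2 and Ccr3 lie on one side of 0, before any adjustment for the number of genes, and no grey bar crosses 0.

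Levels were set against each other after division by exonic length, taken as the union of all annotated exons of a gene. Which transcripts the cells used was not tested, so the order holds for that length only. In Lyve-1- libraries the order of the mean CPM per kb was *Ccrl2*, *Cxcr4*, *Ccr2*, *Ccr1*, *Cx3cr1*, *Cmklr1* and *Ccr3*, from 200 ± 50.5 to 15.3 ± 7.15 (SD, n = 3). In Lyve-1+ libraries it was *Ccrl2*, *Cxcr4*, *Ccr1*, *Cmklr1*, *Ccr2*, *Cx3cr1* and *Ccr3*, from 144 ± 51 to 1.58 ± 1.40 (SD, n = 3). *Cmklr1* stood at 17.2 ± 6.43 CPM per kb in Lyve-1- and 50.5 ± 18.9 in Lyve-1+, and *Ccr2* at 68.2 ± 21.7 and 33.4 ± 17.7. Among neighbours in the Lyve-1- order, *Ccr2* and *Ccr1*, *Ccr1* and *Cx3cr1*, and *Cmklr1* and *Ccr3* had ranges that overlapped. In the Lyve-1+ order all neighbours overlapped except *Cx3cr1* and *Ccr3*. *Ccr2* was above *Ccr1* in 3 of 3 Lyve-1- libraries, and *Ccr1* was above *Ccr2* in 3 of 3 Lyve-1+ libraries. The order in Lyve-1+ depends on the lengths used, 6760 bases for *Ccr2* and 2833 bases for *Ccr1*. Before division *Ccr2* was above *Ccr1* in Lyve-1+ replicate 1 (172 and 168 CPM) and replicate 2 (363 and 191 CPM). It was below *Ccr1* in Lyve-1+ replicate 3 (142 and 180 CPM).

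**Figure D4:**
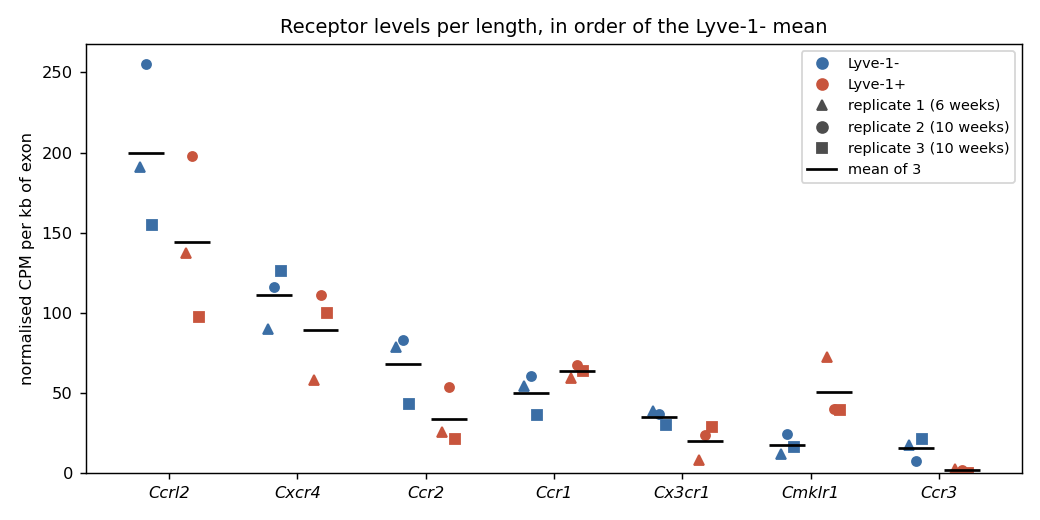
Normalised CPM per kb of exon (vertical axis, linear, from 0) of each receptor in Lyve-1- (blue) and Lyve-1+ (red) libraries, ordered by the Lyve-1- mean, with bars at the means of 3 and the marker giving the replicate. Ccrl2 and Cxcr4 hold the highest means in both subsets, and the Lyve-1+ mean is above the Lyve-1- mean only for Ccr1 and Cmklr1 among the 7.

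The ages could be compared only thinly, since each subset had 1 library at 6 weeks. In a model of subset and age, edgeR called 0 of 7 receptors between 10 and 6 weeks, where it called 0% of all genes, and 1 of 7 had an unadjusted p under 0.05, where 3.33% of genes had one. That gene was *Cxcr4*, with a log2 fold change of 0.64 from 6 to 10 weeks (SE 0.30, adjusted p = 1). For *Cx3cr1* it was 0.64 (SE 0.43, adjusted p = 1). The subset difference of *Cx3cr1* was -2.30 on the log2 scale between the 6-week libraries and -0.34 between the 10-week means, and that of *Cmklr1* was 2.65 and 1.01. The interaction of age and subset was called for 0 of 7 receptors and 0% of genes. At an unadjusted p under 0.05 there were 2 of 7 receptors and 4.59% of genes: *Cx3cr1* (1.96, SE 0.68, adjusted p = 0.869) and *Cmklr1* (-1.67, SE 0.70, adjusted p = 0.976). These interactions rest on 1 library of each subset at 6 weeks, where *Cx3cr1* was lowest and *Cmklr1* highest in the same Lyve-1+ library.

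Most ligands of these receptors had fitted values on the higher side in Lyve-1+ libraries. Of 15 ligand genes tested, 12 had fitted values higher in Lyve-1+ and 3 lower. Their median was 0.42 on the log2 scale, and 0 passed an adjusted p of 0.05. *Ccl8*, a CC chemokine of resident macrophages, had 17.5, 48.2 and 11.5 CPM in Lyve-1- replicates 1, 2 and 3 and 192, 86.7 and 89.6 CPM in Lyve-1+ replicates 1, 2 and 3. The subsets did not overlap for it (log2 fold change 2.25, SE 0.53, adjusted p = 0.097 in edgeR and 0.00897 in DESeq2). *Ccl24*, the eotaxin that acts on CCR3, was named after its values were seen and had 23.5, 13 and 14.5 CPM in Lyve-1- and 114, 26.7 and 89.8 CPM in Lyve-1+ (log2 fold change 2.17, SE 0.53, adjusted p = 0.104 in edgeR and 0.019 in DESeq2). *Ccl5*, a ligand of CCR1 and CCR3 that T cells also make, had the lowest fitted value, with 46.5, 116 and 226 CPM in Lyve-1- and 3.11, 37.9 and 17.2 CPM in Lyve-1+. Its subsets did not overlap either (log2 fold change -2.73, SE 0.90, adjusted p = 0.417 in edgeR and 0.0137 in DESeq2). Under the alternatives *Ccl5* was called in 3 settings and *Ccl8* in 4. *Ccl2*, the main ligand of CCR2, was also chosen after its values were seen: it lay between 340 and 937 CPM in Lyve-1- and between 537 and 1550 CPM in Lyve-1+, which overlapped.

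Among 27 other chemoattractant receptors, 22 were tested, 15 with higher and 7 with lower fitted values in Lyve-1+. Their median was 0.73 on the log2 scale, and 0 passed an adjusted p of 0.05. *Cxcr3*, known from activated T cells, had the highest fitted value, with 0, 0.618 and 0.29 CPM in Lyve-1- and 19.2, 5.19 and 2.51 CPM in Lyve-1+ (log2 fold change 4.84, SE 2.20, edgeR adjusted p = 0.624). The lowest was that of *Ccr7*, described above. Of the 26 genes of receptor signalling and desensitisation, 7 had higher and 19 lower fitted values, with a median of -0.22, and again 0 passed. They summed to between 5730 and 7060 CPM in Lyve-1- and between 4890 and 5240 CPM in Lyve-1+. The gap stayed without *Rgs1*, the gene that differed most in mean CPM (5087 to 6108 CPM and 4651 to 4776 CPM). *Plcb2*, a phospholipase driven by G protein subunits, had 102, 57.1 and 83.2 CPM in Lyve-1- and 13.5, 35.2 and 35.4 CPM in Lyve-1+, without overlap (log2 fold change -1.53, SE 0.45, edgeR adjusted p = 0.225). *Rgs16*, a brake on G protein signalling, had the highest fitted value of that list (0.46, SE 0.68, adjusted p = 1).

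**Figure D5:**
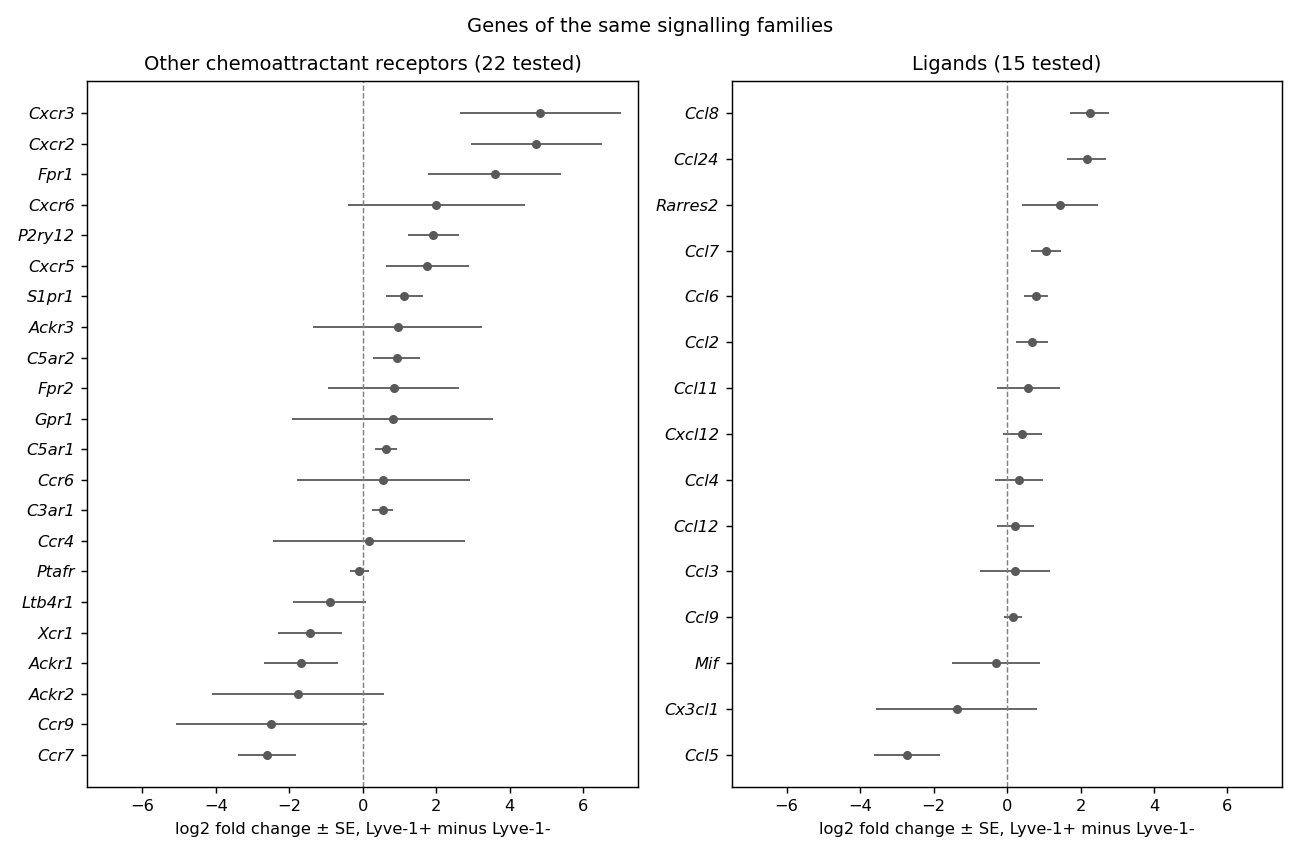
Log2 fold change with its SE, Lyve-1+ minus Lyve-1- (horizontal axis), for 22 other chemoattractant receptors (left) and 15 ligands (right) that passed the filter, sorted by value. In the ligands 12 of 15 points lie above 0, with Ccl8 at the top and Ccl5 at the bottom, and none passed an adjusted p of 0.05.

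Monocyte markers, which *Ccr2* and *Cx3cr1* are often read with, did not divide the subsets as lists. The 12 markers of Ly6C-high monocytes summed to between 4700 and 8700 CPM in Lyve-1- and between 6620 and 8370 CPM in Lyve-1+, with 5 higher and 7 lower fitted values. *Fn1*, named after its values were seen, and *F13a1* made up most of these sums, with fitted values of opposite sign. *Fn1* had 3490 to 6920 CPM in Lyve-1- and 1800 to 4540 CPM in Lyve-1+, and *F13a1* had 740 to 1300 CPM and 2840 to 6210 CPM. Without *F13a1* the sums were 3966 to 7413 CPM and 2053 to 4976 CPM, which also overlap. Monocyte content was not tested. *F13a1*, a coagulation factor gene that resident macrophages also use, was the 1 of 12 past an adjusted p of 0.05 (log2 fold change 1.97, SE 0.31, edgeR adjusted p = 0.012). *Cd177* had the lowest fitted value (-3.45, SE 1.95, adjusted p = 0.838). It had 0, 44.2 and 6.52 CPM in Lyve-1- and 1.21, 3.33 and 0 CPM in Lyve-1+ replicates 1, 2 and 3. Its fitted value rested mostly on Lyve-1- replicate 2, without which it was -0.98. The defining gene *Ly6c2* was highest in replicate 2 of both subsets, at 122 CPM in Lyve-1- and 68.5 CPM in Lyve-1+, and between 4.47 and 18 CPM in the others. Of the 10 markers of Ly6C-low monocytes 0 passed, with sums of 864 to 1440 CPM and 790 to 1110 CPM. *Treml4* had the highest fitted value there (0.82, adjusted p = 1) and *Gngt2* the lowest (-1, adjusted p = 1).

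Resident macrophage markers were mostly on the higher side in Lyve-1+ libraries, where *Ccr2* and *Ccr3* were on the lower side. Their 12 genes summed to between 3610 and 5130 CPM in Lyve-1- and between 8190 and 14000 CPM in Lyve-1+, a gap that stayed without *Mrc1*, the gene that differed most in mean CPM, with 11 of 12 fitted values higher in Lyve-1+ and 3 past an adjusted p of 0.05. These were *Folr2*, a folate receptor (log2 fold change 3.56, SE 0.40, edgeR adjusted p = 0.00123), *Cd163*, a haemoglobin scavenger receptor (2.47, SE 0.36, adjusted p = 0.00805), and *Timd4*, which binds dying cells (2.02, SE 0.32, adjusted p = 0.012). *Folr2* and *Cd163* were called, and without Lyve-1- replicate 3 neither was (adjusted p = 0.0162 and 0.0707), nor was *Cd163* without Lyve-1- replicate 2 (adjusted p = 0.0329). *Vsig4*, a complement receptor, had the highest fitted value (4.38, SE 2.32, adjusted p = 0.752), and *Emr1* the lowest (-0.29, SE 0.28, adjusted p = 1).

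For markers of further cell types the sums were as follows. Those of fibroblasts, endothelium, epithelium and adipocytes summed to between 511 and 690 CPM in Lyve-1- and between 805 and 2390 CPM in Lyve-1+, with 0 of 14 tested past the adjusted p. The gap in this pooled sum rested on the collagen gene *Col1a1*, named after its values were seen: without it the sums were 297 to 474 CPM and 405 to 824 CPM, which overlap. The list mixes cell types, with 8 of 14 fitted values higher and 6 lower in Lyve-1+. The fibroblast genes *Pdgfra* (23.2 to 36.8 CPM against 49.2 to 203 CPM) and *Lum* (6.85 to 20 CPM against 41.2 to 105 CPM) also lay apart, higher in Lyve-1+. *Dcn* overlapped, and *Epcam* was the 1 gene apart on the lower side, where 6.5% of all genes lay apart. *Pdgfra* and *Dcn* were also named after their values were seen. *Lum* had the highest fitted value (2.07, adjusted p = 0.161) and *Epcam* the lowest (-1.64, adjusted p = 0.588). Neutrophil markers summed to between 128 and 223 CPM and between 251 and 559 CPM, with 0 of 6 past it, and without the protease gene *Mmp9*, also named after its values were seen, they overlapped (76.6 to 132 CPM and 87.8 to 446 CPM), with *S100a8* at one end (2.81, adjusted p = 0.494) and *Ltf* at the other (-1.13, adjusted p = 1). Mast cell and basophil markers overlapped (106 to 141 CPM and 66.4 to 335 CPM, 0 of 7 past it), with *Cpa3* highest (2.84, adjusted p = 0.61) and *Kit* lowest (-2, adjusted p = 0.678). *Mcpt8*, of basophils, was at 0 in every library. Lymphocyte and NK cell markers overlapped too (169 to 262 CPM and 74.3 to 241 CPM, 0 of 12 past it), with *Cd79b* highest (1.29, adjusted p = 1) and *Gzma* lowest (-1.72, adjusted p = 1). Their part in the receptor values was not tested.

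Across the 6 libraries, the genes whose log2 CPM ran closest to each receptor were ranked by Pearson's r, as a description of libraries that share depth and sort. For *Cmklr1* they were *Tmppe*, *Ssh2* and *Mknk1* (0.994, 0.994 and 0.992), and for *Ccr3* *Hs3st1*, *Acot11* and *Ctsf* (0.995, 0.991 and 0.989). For *Ccr2* they were *Cdkn1a*, *Snord35a* and *Gm15056* (0.991, 0.985 and 0.984), and for *Cx3cr1* *9830107B12Rik*, *Nfkbib* and *Fgr* (0.987 each). *Ccrl2* ran closest to *Sap30l*, *Il1a* and *Fam129b* (0.989, 0.985 and 0.98), *Cxcr4* to *Il17ra*, *Spic* and *Cacfd1* (0.99, 0.986 and 0.983), and *Ccr1* to *Ube4a*, *Cd200r1* and *Gltscr1* (0.99, 0.982 and 0.977). No receptor was among the 3 closest genes of another.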

How the data were processed

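RNA-seq was run on 3 Lyve-1- and 3 Lyve-1+ pools with a stranded total RNA kit. Per the labels, HISAT2 2.0.2 and featureCounts 1.5.0 were used on mm10. The authors deposited raw counts per gene symbol, from paired reads of 50 bases. The methods state the removal of 1 outlying 6-week library. Strand setting and annotation are not given in the sources used here. The deposited counts, 6478007 to 21406839 per library, were tested with edgeR 4.0.16 in R 4.3.3 (TMM, filterByExpr, robust quasi-likelihood F test, Benjamini-Hochberg over 13348 genes, subset as the only term), and a call needed an adjusted p under 0.01 with a log2 fold change between 1 and 10 in size. The study named DESeq2, and version 1.42.0 was an alternative. CPM used TMM-scaled library totals, and likeness a prior count of 2. Lengths came from GENCODE M21, which matched 22749 symbols directly and 943 by synonym. Motifs, coding alignments (Biopython 1.88) and 50-base windows were computed from RefSeq and GENCODE sequences.

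The receptors and lists were chosen with earlier results of these data known. Named were the receptors, *Lyve1*, in each list the genes past an adjusted p of 0.05 and the highest and lowest fitted fold change, and for likeness the 3 genes with the highest r. *Adgre1* was found under its older symbol. Some genes are not reported here and were left out of the lists. The alternatives were other scalings and filters, DESeq2, a block for the replicate number, a term for age, the 10-week libraries alone, each library left out, a looser threshold and subtraction of olfactory receptor background. The comparison of 4 libraries with the smallest share of olfactory receptor counts was added after seeing the data. On simulated data for Lyve-1+ against Lyve-1-, 67 of 200 genes changed by a log2 fold change of 2 were called at the estimated dispersion, with 3 false calls, and 179 at a dispersion of 0.1. DESeq2 recovered 101 with 50 false calls at the estimated dispersion, and 181 with 3 false calls at a dispersion of 0.1. Which of these is nearer to the genes named here was not tested. The simulation therefore does not settle how far the DESeq2 adjusted p-values hold for them.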

Additional observations from a re-analysis of the deposited data

How the results depend on the processing

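Under the alternatives, 2 receptors were called in 1 setting: with no filter on low counts, *Ccr3* was at -3.27 and *Cmklr1* at 1.53 (log2 fold change). No receptor was called in any of the others. Fitted directions held for 6 receptors in every alternative that could be fitted, *Ccr3* having no value with at least 10 counts in every library. The exception was *Cxcr4*, at 0.01 over the 4 libraries with the smallest share of olfactory receptor counts. These were Lyve-1- replicates 1 and 2 and Lyve-1+ replicates 2 and 3. Only Lyve-1- keeps its 6-week library there, so age is not balanced between the subsets. Without Lyve-1+ replicate 1 alone, *Cxcr4* was at -0.07. The cause was not tested.

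The number of genes called, 15 over all 6 libraries, was 188 with no filter, 33 with at least 10 counts in every library, 148 with DESeq2, 58 with a term for age, 84 when only an adjusted p under 0.05 was asked, and 0 over those 4 libraries. Leaving out 1 library gave between 1 and 81: 65, 39 and 1 for Lyve-1- replicates 1, 2 and 3, and 23, 81 and 45 for Lyve-1+ replicates 1, 2 and 3. Same-numbered samples share an age, and their deviations correlated at -0.05, 0 and -0.15, not above the 0.1 asked for a pairing. Whether they came from the same mice is not given, and these correlations do not settle it. Each receptor had 1 sign in all 3 same-numbered comparisons, lower for 5 and higher for 2. The share of all genes with 1 sign in all 3 was not counted, so nothing is drawn from this. With the replicate number as a block, 140 genes and 0 receptors were called, *Ccr2* at -1.10 (adjusted p = 0.0156) and *Cmklr1* at 1.55 (adjusted p = 0.0147). *Ccr3* was at -3.67 there (SE 1.80, edgeR adjusted p = 0.761).

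Of the 28 other named genes, 3 turned direction. *Gzma* was at 4.40 with the replicate block. With each library left out in turn *Gzma* ran from -2.30 to 6.62 (highest without Lyve-1- replicate 3), *Treml4* from -0.33 to 1.34 and *Il5ra* from -3.50 to 3.27, both lowest without Lyve-1+ replicate 3. Over all results on these genes and alternatives, 42 gained a call and 6 lost one, the latter all of *Folr2* and *Cd163*. *F13a1* and *Timd4* gained it in 10 settings each, *Lyve1* in 6, *Fscn1* in 5 and *Ccr7* in 4. Those of *Fscn1* included the replicate block (edgeR adjusted p = 3.92e-07). The other scalings shifted the all-gene median by -0.03 and -0.06 on the log2 scale.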
